A study of Mus musculus with 9 samples.

Results

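The regions described here carried a deposited Stat5a or Stat5b peak 8 h and 13 h into Th2 differentiation and none in the lists made after 2 rounds. The 6 peak lists deposited by the authors, in coordinates of the mouse build mm8, were joined wherever peaks shared at least 1 bp, and the mitochondrial chromosome was left out. Of the 43766 merged regions, 515 met the rule, which is 1.18%. Of the 4274 regions with peaks at 8 h and at 13 h, these 515 are the 12.0% that had no peak of either antibody in the later lists. The peak lists themselves chose the regions, so the read levels of the same 6 immunoprecipitates at these regions are given as a description and not as a test.

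Chromatin immunoprecipitates (ChIP) of mouse CD4+ T cells, the helper class of T cells, were sequenced with antibodies to Stat5a and to Stat5b. The cells had undergone Th2 differentiation for 8 h, 13 h or 2 rounds, and each of these 3 stages has an IgG control. This gave 9 libraries, 1 for each antibody and stage, so every comparison is one of libraries, and no p-value between stages or antibodies can be had. The cytokines and antibodies of the culture, the mouse strain, age and genotype, and whether animals were pooled, are not stated in the labels used here, which refer to a publication for the culture. The title of the series places the work in the question of how IL-2 primes Th2 differentiation through the IL-4 receptor alpha chain. Whether the libraries carry the marks of CD4+ T cells could not be checked, since the lists give positions and no genes.

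Stat5a and Stat5b are closely related transcription factors that are phosphorylated by JAK kinases when IL-2 and related cytokines bind their receptors. The phosphorylated proteins pair, enter the nucleus and bind DNA at palindromic elements in enhancers and promoters. In CD4+ T cells, IL-2 signalling through Stat5 is known to open the way to IL-4 production and to keep the cells responsive to IL-4, the cytokine that drives the Th2 fate.

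Levels are given as RPM, the number of reads whose 5′ end lay in a region, divided by the mapped reads of that library and times 1000000. Depth ran from 3130228 reads in Stat5a at 8 h to 9036070 in Stat5b at 13 h. The distinct starts and strands of a library numbered between 61.0% and 74.1% of its reads. All 9 libraries held reads of 25 bp, and Stat5a and IgG at 13 h and after 2 rounds also held reads of 24 bp, which made up between 38.0% and 77.3% of them. A ratio of 2 libraries is given with its exact 95% interval (Clopper-Pearson). A region is called higher or lower between stages when that interval lies wholly above 2 or below 0.5, and above IgG when it lies wholly above 1. These intervals cover counting error only, and the reads carry no molecular identifiers, so they are not independent molecules.

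By median RPM, Stat5a exceeded Stat5b at these regions at 8 h, and Stat5b exceeded Stat5a at 13 h. After 2 rounds both antibodies were low there. The 3759 regions with peaks at all 3 stages had the same order at 8 h (5.11 and 2.48 RPM) and at 13 h (3.61 and 5.31 RPM). The order is thus not particular to the 515 regions, and it compares libraries and not amounts of bound protein. The median Stat5a level over the 515 regions was 3.19 RPM at 8 h, 1.56 RPM at 13 h and 0.903 RPM after 2 rounds. The median Stat5b level was 1.31, 2.21 and 1.31 RPM over the same stages, and the median IgG level was 0.320, 0.266 and 0.518 RPM. Thus Stat5a was highest at the first stage, Stat5b at the middle one, and IgG at the last. In reads these medians are small: 10, 13 and 6 for Stat5a, 9, 20 and 10 for Stat5b, and 2, 2 and 3 for IgG.

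**Figure D1:**
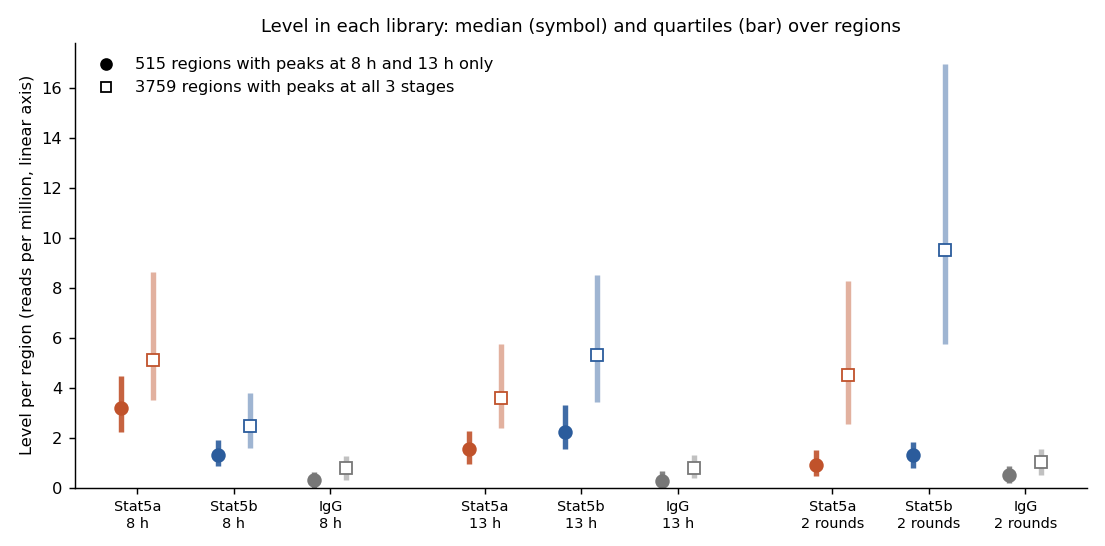
RPM per region in each of the 9 libraries, as the median (symbol) and quartiles (bar) over regions, for the 515 regions with peaks at 8 h and 13 h only (filled circles) and the 3759 regions with peaks at all 3 stages (open squares). The filled Stat5a symbols step down from 3.19 over 1.56 to 0.903 RPM, while the open Stat5b squares climb to 9.53 RPM after 2 rounds.

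The regions were narrow and weak beside those that kept a peak at all 3 stages. Their median width was 386 bp (quartiles 315 and 477.5 bp, range 93 to 978 bp), against 841 bp for the 3759 regions with peaks at all 3 stages. Regions with peaks at 8 h alone were 205 bp wide at the median, and those at 13 h alone 231 bp. In the 3759 lasting regions the median levels in the order of the stages were 5.11, 3.61 and 4.51 RPM for Stat5a, 2.48, 5.31 and 9.53 RPM for Stat5b and 0.801, 0.797 and 1.04 RPM for IgG. The regions with peaks at 8 h and 13 h only therefore held less of both antibodies than the lasting ones, already at those stages. After 2 rounds they held far less, and they were narrower.

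Because widths differ, levels were also set per length. For this, and for all sums, 21 of the 515 regions were left out after the data had been seen. These are 6 heaped regions, in which more than 50% of a library's reads (at least 20) shared 1 start and strand, and 19 with 100 or more IgG reads over the 3 stages, of which 4 belong to both kinds. Over the remaining 494 regions, the 200 bp on either side of the centre held 8.04, 3.94 and 2.40 RPM per kb of Stat5a at 8 h, 13 h and 2 rounds, and 3.45, 5.76 and 3.29 RPM per kb of Stat5b. In 3701 lasting regions, chosen by the same limits, the same windows held 10.5, 7.05 and 10.1 RPM per kb of Stat5a and 4.54, 10.4 and 21.0 RPM per kb of Stat5b. Per length, both antibodies at 8 h were thus closer between the 2 classes than either was at any later stage.

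A peak shape could still be seen after 2 rounds. The centre of the 494 regions stood over the flanks (1 to 2 kb away) by 7.54 times (7.22 to 7.88) for Stat5a at 8 h, by 4.38 times (4.24 to 4.53) at 13 h and by 2.51 times (2.41 to 2.62) after 2 rounds. For Stat5b these values were 4.59 (4.41 to 4.78), 5.34 (5.19 to 5.49) and 2.44 (2.35 to 2.52). IgG itself stood over its flanks by 1.78 (1.67 to 1.90), 1.81 (1.70 to 1.91) and 2.07 times (1.96 to 2.19). After 2 rounds the intervals of both antibodies still lay above that of IgG, but by far less than before. In the lasting regions Stat5b stood 10.3 times over its flanks after 2 rounds and IgG 1.71 times.

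**Figure D2:**
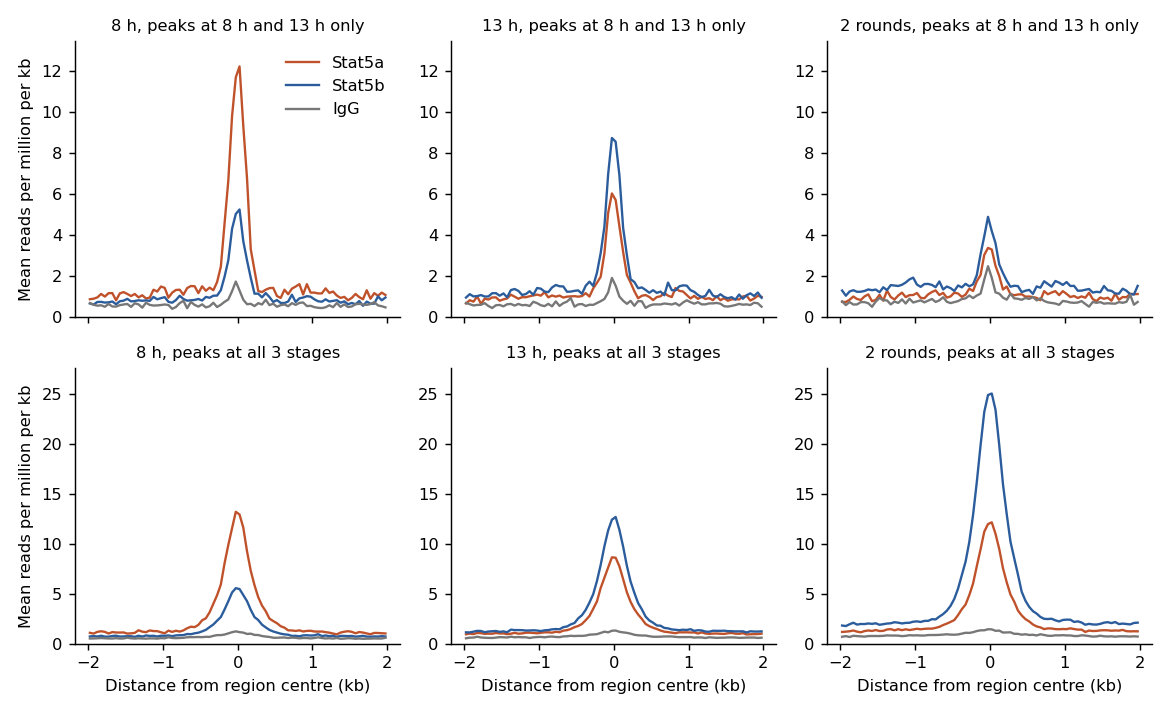
Mean RPM per kb in bins of 50 bp against the distance from the region centre (kb), for Stat5a, Stat5b and IgG at 8 h, 13 h and 2 rounds, in the 494 regions with peaks at 8 h and 13 h only (top) and in the regions with peaks at all 3 stages (bottom). In the top panels the Stat5a summit is tallest at 8 h, the Stat5b summit at 13 h, and a low summit of both, with IgG under it, remains after 2 rounds.

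The strands of the reads bore on the same point. Reads from the 2 ends of bound fragments lie on the plus strand left of a binding site and on the minus strand right of it, and this order was read over the 494 regions. For Stat5a, 69.4%, 68.2% and 61.7% of reads were so ordered at 8 h, 13 h and 2 rounds, and for Stat5b 64.5%, 68.6% and 63.0%. IgG reads were so ordered in 61.7%, 62.6% and 59.3%. After 2 rounds the Wilson interval of Stat5b (61.7 to 64.3%) lay just above that of IgG (57.0 to 61.6%). That of Stat5a (60.0 to 63.4%) overlapped the interval of IgG.

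Most of these regions were above IgG of the same stage for Stat5a at 8 h and for each antibody at 13 h. The share was smaller for Stat5b at 8 h and, for each antibody, after 2 rounds. Stat5a was above IgG in 391 of the 515 regions at 8 h (75.9%), where 23.2% of all merged regions were called so, and in 280 at 13 h (54.4%, background 37.4%). Stat5b exceeded IgG in 202 regions at 8 h (39.2%, background 12.1%) and in 395 at 13 h (76.7%, background 38.8%). Counting a start and strand once gave 357 for Stat5a at 8 h (69.3%, background 14.5%) and 191 at 13 h (37.1%, background 17.8%). For Stat5b it gave 124 at 8 h (24.1%, background 7.05%) and 334 at 13 h (64.9%, background 27.7%). After 2 rounds Stat5a was above IgG in 69 regions (13.4%) and Stat5b in 146 (28.3%), where 32.7% and 71.5% of all merged regions were called. The peak calls of these libraries, present or absent, fixed the members, so nothing is read from these shares. For at least 1 antibody, 433 were above IgG at 8 h (84.1%, background 27.6%) and 436 at 13 h (84.7%, background 55.2%). In 1 or more of the 4 ChIP libraries of 8 h and 13 h, 478 regions were above IgG. In all 4 of them 88 were, and in none 37, although each of the 37 had deposited peaks. The counts over the 4 libraries were not made for all merged regions.

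Some of the regions without a later peak were above IgG after 2 rounds, though a smaller share than of all merged regions. After 2 rounds 181 of the 515 (35.1%) were above IgG for at least 1 antibody, against 74.3% of all merged regions, and 34 (6.60%) for both, against 29.9%. With each start and strand counted once, 10 regions were above IgG for Stat5a and 40 for Stat5b (1.94% and 7.77%, background 19.9% and 64.4%). With 25 bp reads alone the counts were 16 and 9 (3.11% and 1.75%, background 12.2% and 34.1%). The Stat5b library of that stage holds no 24 bp reads. For Stat5b this setting therefore changes IgG alone, which loses 77.3% of its reads. With IgG pooled over the 3 stages they were 151 and 286 (29.3% and 55.5%, background 45.5% and 78.8%). In reads, 153 regions (29.7%) held at least 14 Stat5b reads after 2 rounds, which is as many as the 10th percentile of the 31744 deposited Stat5b peaks of that stage, and 136 (26.4%) held at least 10 Stat5a reads, the same percentile of the 9556 Stat5a peaks. By reads per kb, 143 (27.8%) reached that percentile for Stat5b and 63 (12.2%) for Stat5a, and by reads and reads per kb together 102 (19.8%) and 53 (10.3%). In reads, 24 and 29 regions reached the median of those peaks, which was 30 reads for Stat5b and 20 for Stat5a. How the authors' peak caller treated these regions was not tested.

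The region with the highest level above IgG after 2 rounds lay on chromosome 11 from 87574415 to 87575155. Stat5a stood there at 10.5, 4.45 and 6.32 RPM over the 3 stages (33, 37 and 42 reads), Stat5b at 5.10, 8.41 and 7.97 RPM (35, 76 and 61 reads) and IgG at 2.56, 3.19 and 3.80 RPM (16, 24 and 22 reads). Stat5b after 2 rounds was 0.947 times its level at 13 h (0.665 to 1.34) and 2.10 times IgG (1.27 to 3.58). A peak of the later lists lay 800 bp away. The next such region in rank, on chromosome 9 from 32675589 to 32676174, held 20 Stat5a, 24 Stat5b and 2 IgG reads after 2 rounds (3.01, 3.13 and 0.346 RPM), with a later peak 1641 bp away.

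Some regions lay close to either side of the rule. The member nearest to a later peak, on chromosome 12 from 3308326 to 3308836, was 2 bp away from it, and held 7 Stat5a, 18 Stat5b and 0 IgG reads after 2 rounds. Just outside, the region on chromosome 8 from 15010110 to 15011697 was held to have peaks at all 3 stages on 22 bp of overlap between its early and later peaks, and its levels after 2 rounds were 2.41, 8.75 and 1.56 RPM for Stat5a, Stat5b and IgG. Of the 3759 lasting regions, 6 rested on an overlap of at most 100 bp and 1 on at most 50 bp. Of the members, 30 (5.83%) had a later peak within 200 bp, against 8.61% of all merged regions.

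From 8 h to 13 h, Stat5a and Stat5b moved in opposite directions at these regions. Summed over the 494 regions, Stat5a at 13 h was 0.486 times its level at 8 h (0.469 to 0.504), with 6878 reads at 13 h and 5328 in the shallower library of 8 h. Stat5b at 13 h was 1.73 times its level at 8 h (1.67 to 1.79), with 11100 and 4877 reads. IgG was 1.09 times its level at 8 h (1.01 to 1.17), and of the 515 regions 1 was called higher (background 0.254%) and 1 lower (background 0.462%). Over all merged regions with reads in both libraries, the median ratios were 0.869 for Stat5a and 1.90 for Stat5b, and scaled to that median the summed Stat5b ratio of the 494 was 0.910 (0.880 to 0.942). Whether the antibodies differ in this was not tested.

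Single regions could rarely be called at this depth. For Stat5a, 46 of the 515 regions were lower at 13 h than at 8 h (background 2.15%) and 4 were higher (background 0.286%). For Stat5b, 24 were higher (background 5.27%) and 0 were lower (background 0.304%). The median ratio over regions with reads at both stages was 0.479 for Stat5a and 1.73 for Stat5b. With each start and strand counted once, 12 regions were lower for Stat5a and 5 higher for Stat5b. Stage calls counted in this way, here and below, were made on the members alone and so have no background.

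After 2 rounds both antibodies were lower than at 13 h. Summed over the 494 regions, Stat5a after 2 rounds was 0.594 times its level at 13 h (0.570 to 0.620) and Stat5b 0.555 times (0.537 to 0.573), while IgG was 1.35 times (1.26 to 1.44), and of the 515 regions 5 were called higher for IgG (background 0.644%) and 0 lower (background 0.0914%). Over all merged regions the median ratios were 1.25 for Stat5a and 2.58 for Stat5b. Among the 515, Stat5a was called lower in 36 regions (background 3.97%) and higher in 0 (background 7.67%), and Stat5b lower in 35 (background 0.637%) and higher in 0 (background 25.1%). With each start and strand counted once, 6 were lower for Stat5a and 12 for Stat5b. The rule asked for no later peak and so chose for this direction.

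Against 8 h, the later level was lower for Stat5a and about equal for Stat5b. Summed Stat5a after 2 rounds was 0.289 times its level at 8 h (0.277 to 0.302), and 127 regions were called lower (background 1.91%) and 3 higher (background 3.73%). Summed Stat5b was 0.959 times its level at 8 h (0.922 to 0.998), with 8 regions lower (background 0.215%) and 5 higher (background 43.4%). Scaled by reads outside merged regions, the summed Stat5b ratio was 1.12 (1.08 to 1.16), on the other side of 1. With each start and strand counted once, 58 regions were lower for Stat5a and 1 for Stat5b. IgG was 1.47 times its level at 8 h (1.37 to 1.58), and of the 515 regions 4 were higher (background 0.551%) and 1 lower (background 0.146%). The median ratios over regions with reads at both stages were 0.283 for Stat5a and 1.01 for Stat5b, against 1.10 and 4.82 over all merged regions.

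**Figure D3:**
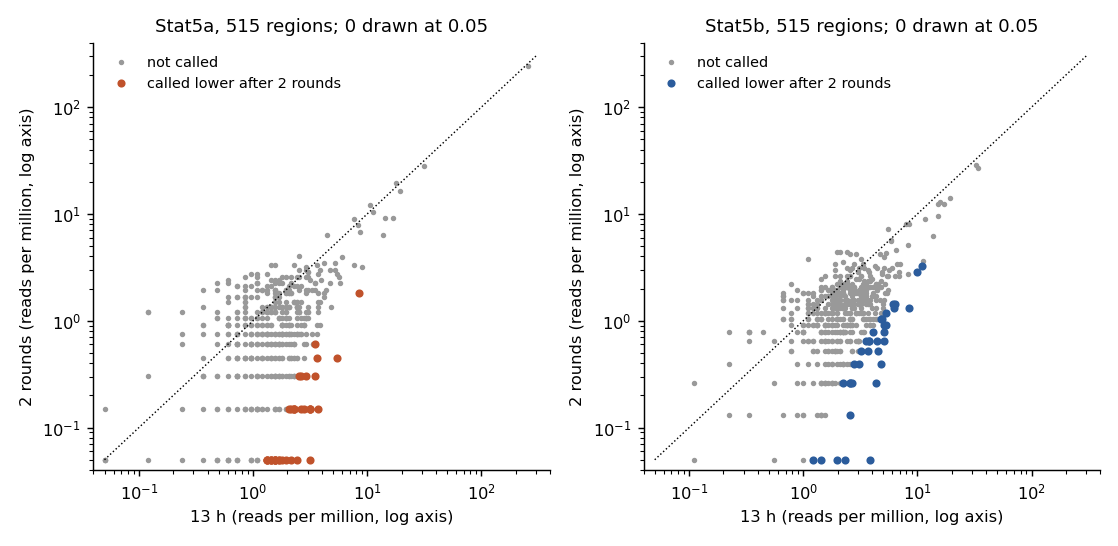
RPM after 2 rounds against RPM at 13 h (both axes logarithmic, 0 drawn at 0.05) for Stat5a (left) and Stat5b (right), 1 point for each of the 515 regions, with the line of equal level dotted. Coloured points are the 36 Stat5a and 35 Stat5b regions called lower after 2 rounds, and most grey points also lie under the line.

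Depth set what could be called. With the median of 20 Stat5b reads at 13 h, at most 2 reads after 2 rounds would have been called lower, and with the median of 13 Stat5a reads only 0 would have been. Counting all comparisons with 8 h and with 13 h, 161 of the 515 regions were called lower after 2 rounds for at least 1 antibody. The other 354 were called lower in none, and 138 of these were above IgG after 2 rounds. A fall in both antibodies from 13 h was called in 3 regions, and a fall in both from 8 h in 2. These pooled counts were not made over all merged regions, so nothing particular to the 515 is read from them.

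The regions can also be split by the lists that held them. These lists were called from the same libraries whose ratios are given, so a split by list also sorts the regions by their counts in those libraries, and the ratios are a description only. At 8 h, 298 of the 515 regions lay in the Stat5a list alone, 130 in the Stat5b list alone and 87 in both. At 13 h, 101 lay in the Stat5a list alone, 238 in the Stat5b list alone and 176 in both. The commonest of the 9 combinations, with 153 regions (29.7%), was Stat5a alone at 8 h followed by Stat5b alone at 13 h, and the rarest, with 10 regions, was both antibodies at 8 h followed by Stat5a alone. All 4 lists of 8 h and 13 h held 44 regions, 3 of them held 175 and 2 of them 296.

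The ratios of 13 h over 8 h differed between these groups. In the 298 regions of the Stat5a list alone at 8 h, Stat5a at 13 h was 0.403 times its level at 8 h (0.386 to 0.422) and Stat5b 2.16 times (2.06 to 2.27). In the 79 regions of both lists the ratios were 0.432 (0.400 to 0.468) and 1.41 (1.32 to 1.51). In the 117 regions of the Stat5b list alone, Stat5a was 1.28 times (1.15 to 1.42) and Stat5b 1.34 times (1.25 to 1.43) its level at 8 h. Within these 117, the Stat5a ratio went with the list of 13 h. It was 2.54 (1.99 to 3.28) in the 29 regions with Stat5a alone at 13 h, 1.23 (1.06 to 1.44) in the 37 with both, and 0.777 (0.646 to 0.939) in the 51 with Stat5b alone at both stages. The Stat5b ratios of these 3 groups were 0.833 (0.716 to 0.970), 1.45 (1.31 to 1.61) and 1.55 (1.39 to 1.72).

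The ratios of 2 rounds over 13 h were split by the 13 h list. In the 91 regions of the Stat5a list alone at 13 h, Stat5a after 2 rounds was 0.435 times its level at 13 h (0.392 to 0.483), and Stat5b 0.922 times (0.838 to 1.01). In the 234 regions of the Stat5b list alone, Stat5a was 0.879 times (0.821 to 0.940) and Stat5b 0.538 times (0.512 to 0.566). In the 169 regions of both lists the ratios were 0.486 (0.456 to 0.518) and 0.499 (0.474 to 0.525). Each antibody was lowest, relative to 13 h, where its own 13 h list held the region, and near or little under its 13 h level where only the other antibody's list did. What the choice of the regions contributes to these ratios cannot be told apart from a change between the stages. In the 40 regions of all 4 lists, chosen by both antibodies at both stages, Stat5a was 0.510 times at 13 h over 8 h (0.460 to 0.565) and 0.414 times at 2 rounds over 13 h (0.361 to 0.472), and Stat5b 1.50 times (1.37 to 1.64) and 0.426 times (0.385 to 0.471).

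**Figure D4:**
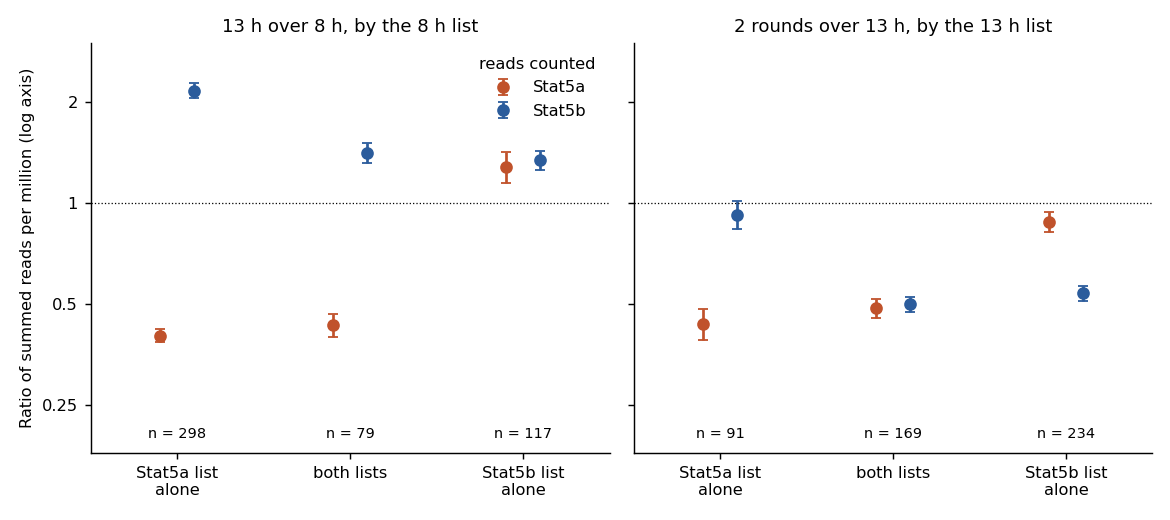
Ratio of summed RPM (logarithmic axis) of 13 h over 8 h by the 8 h list that held the region (left) and of 2 rounds over 13 h by the 13 h list (right), with exact 95% counting intervals and the number of regions under each pair. Stat5a runs from 0.403 to 1.28 on the left, and on the right each antibody is near 0.5 where its own list held the region.

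The direct comparison of the antibodies followed the lists too. Stat5b was called lower than Stat5a at 8 h in 86 of the 515 regions (background 3.8%) and higher in 3 (background 0.048%). At 13 h Stat5b was higher in 19 (background 2.07%) and lower in 3 (background 5.33%), and after 2 rounds higher in 11 (background 17.2%) and lower in 2 (background 0.487%). The median ratio of Stat5b over Stat5a, where both had reads, was 0.382 at 8 h, 1.51 at 13 h and 1.39 after 2 rounds. The antibodies may pull down their targets unequally, so these ratios compare libraries and not amounts of bound protein.

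Among single regions, those highest above IgG at 8 h were marked by Stat5a. On chromosome 16 from 52048496 to 52049141, Stat5a stood at 13.4, 1.20 and 0.752 RPM over the 3 stages (42, 10 and 5 reads). Stat5b there stood at 1.89, 1.55 and 0.914 RPM and IgG at 0.481, 0.532 and 0.173 RPM. Stat5a at 13 h was 0.0897 times its level at 8 h (0.0401 to 0.182; each start once, 0.164 with 0.0699 to 0.355), the lowest ratio among the regions called lower with at least 30 reads. Most Stat5a reads of this region were those of 8 h, and the Stat5b ratio of 13 h over 8 h was 0.818 (0.357 to 1.89).

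On chromosome 6 from 129194693 to 129195213, Stat5a stood at 10.2, 1.08 and 2.26 RPM over the 3 stages (32, 9 and 15 reads). Stat5b stood at 3.49, 4.76 and 1.04 RPM (24, 43 and 8 reads), and IgG had 1, 0 and 3 reads. Stat5a fell to 0.106 times at 13 h (0.0445 to 0.227), while Stat5b was 1.36 times its level at 8 h (0.808 to 2.35). After 2 rounds Stat5b fell to 0.220 times its 13 h level (0.0892 to 0.472), a call that was lost with each start counted once (0.0782 to 0.561). Stat5a was thus low from 13 h on, and Stat5b after 2 rounds alone. A region with peaks at all 3 stages lay 449 bp away.

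At 2 further regions Stat5a was also called lower at 13 h than at 8 h. On chromosome 10 from 96605888 to 96606428 Stat5a held 30, 12 and 2 reads (9.58, 1.44 and 0.301 RPM), Stat5b 7, 25 and 11 and IgG 0, 3 and 0. On chromosome 5 from 87147115 to 87147621 Stat5a held 30, 13 and 13 reads (9.58, 1.56 and 1.96 RPM), Stat5b 18, 50 and 15 and IgG 5, 0 and 3. The ratio of 13 h over 8 h was 0.151 (0.0702 to 0.303) in the first and 0.163 (0.0781 to 0.322) in the second, whose call was lost with each start counted once (0.0909 to 0.575). Both showed the commonest combination, a Stat5a peak alone at 8 h and a Stat5b peak alone at 13 h.

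At other strong 8 h regions both antibodies were lowest after 2 rounds. On chromosome 4 from 32783825 to 32784332, a region of all 4 lists, Stat5a stood at 11.2, 2.89 and 0.301 RPM (35, 24 and 2 reads) and Stat5b at 3.49, 8.41 and 1.31 RPM (24, 76 and 10 reads), with IgG at 1.12, 1.59 and 1.04 RPM. Stat5a at 13 h was 0.258 times its level at 8 h (0.147 to 0.447), called lower, though not with each start counted once (0.167 to 0.623). After 2 rounds Stat5a was 0.104 times (0.0119 to 0.420) and Stat5b 0.155 times (0.0716 to 0.301) its 13 h level. This is 1 of the 3 regions at which both fell from 13 h, and after 2 rounds neither antibody was above IgG there. With each start counted once the Stat5b fall was still called (0.0571 to 0.388) and the Stat5a fall was not (0.0153 to 0.562).

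On chromosome 13 from 112899559 to 112900086, also in all 4 lists, Stat5a held 27, 23 and 4 reads (8.63, 2.77 and 0.602 RPM), Stat5b 26, 48 and 7 (3.79, 5.31 and 0.914 RPM) and IgG 2, 5 and 0. Stat5b fell to 0.172 times its 13 h level (0.0657 to 0.383; each start once, 0.135 with 0.0349 to 0.379). Stat5a after 2 rounds was 0.0698 times its level at 8 h (0.0177 to 0.200), a call lost with each start counted once (0.0269 to 0.590). Here too both antibodies were lowest after 2 rounds.

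On chromosome 15 from 5501834 to 5502724, Stat5a stood at 11.5, 2.89 and 1.05 RPM (36, 24 and 7 reads), Stat5b at 3.20, 4.09 and 1.04 RPM (22, 37 and 8 reads) and IgG at 0.961, 0.133 and 0.691 RPM. Stat5a at 13 h was 0.251 times its level at 8 h (0.143 to 0.433) and called lower, also with each start counted once (0.114 to 0.485). The Stat5b ratio of 2 rounds over 13 h was 0.255 (0.103 to 0.557), which missed the call. With 891 bp it was among the widest of the 515 regions.

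On chromosome 1, 3 regions lay within 4.007 kb, from 162143956 to 162147962, with no later peak inside that span. In the first, which ends at 162144779, Stat5a held 34, 32 and 6 reads (10.9, 3.85 and 0.903 RPM), Stat5b 16, 48 and 9 (2.33, 5.31 and 1.18 RPM) and IgG 1, 7 and 0. In the second, from 162146974 to 162147452, Stat5a held 16, 13 and 0 reads (5.11, 1.56 and 0 RPM), Stat5b 6, 41 and 4 (0.874, 4.54 and 0.522 RPM) and IgG 1, 0 and 0. In both, Stat5b was at its highest at 13 h and Stat5a at 8 h.

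In the second region Stat5b rose to 5.19 times its level at 8 h (2.19 to 15.0) by 13 h and fell to 0.115 times its 13 h level (0.0300 to 0.318) after 2 rounds. Stat5a after 2 rounds was at 0 reads, at most 0.289 times its 13 h level with the later library set at a floor of 3 counts (interval of the ratio 0 to 0.410). With each start counted once these 3 calls were lost, their intervals being 1.46 to 13.3, 0.0300 to 0.522 and 0 to 0.894. The third region of the group, from 162147557 to 162147962, was weaker, with 14 Stat5a and 24 Stat5b reads at 13 h and 7 of each after 2 rounds.

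The regions highest above IgG at 13 h were led by Stat5b. The widest of all 515, on chromosome 4 from 15199867 to 15200844, held 21, 71 and 12 Stat5a reads (6.71, 8.54 and 1.81 RPM), 37, 100 and 28 Stat5b reads (5.39, 11.1 and 3.66 RPM) and 18, 13 and 12 IgG reads (2.88, 1.73 and 2.07 RPM). Stat5a fell to 0.211 times its 13 h level (0.104 to 0.393; each start once, 0.204 with 0.0703 to 0.485). The Stat5a ratio of 13 h over 8 h was 1.27 there (0.773 to 2.18), and no change was called. With each start counted once it was 0.933 (0.508 to 1.79), on the other side of 1.

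On chromosome 10 from 95837100 to 95837990, Stat5a stood at 8.31, 4.69 and 3.01 RPM, Stat5b at 3.64, 10.8 and 3.27 RPM (25, 98 and 25 reads) and IgG at 1.28, 0.532 and 1.21 RPM. Stat5b fell to 0.301 times its 13 h level (0.186 to 0.471; each start once, 0.255 with 0.124 to 0.484) and so returned to its level of 8 h, at 0.897 times (0.494 to 1.63). After 2 rounds both antibodies were still above IgG, Stat5a at 2.49 times (1.01 to 6.96) and Stat5b at 2.70 times (1.14 to 7.39). A later peak lay 1679 bp away.

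On chromosome 10 from 39125580 to 39126200, Stat5a alone was called lower after 2 rounds than at 13 h. Stat5a held 15, 45 and 3 reads there (4.79, 5.41 and 0.451 RPM), Stat5b 21, 62 and 22 (3.06, 6.86 and 2.87 RPM) and IgG 3, 2 and 5. Stat5a fell to 0.0834 times its 13 h level (0.0166 to 0.260), while Stat5b was 0.419 times (0.245 to 0.691), not called, and still 3.33 times IgG (1.23 to 11.2). With each start counted once the Stat5a call was lost (0.0405 to 0.736).

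On chromosome 9 from 119928508 to 119929125, Stat5b alone was called lower after 2 rounds than at 13 h. Stat5a held 18, 43 and 20 reads (5.75, 5.17 and 3.01 RPM), Stat5b 12, 56 and 10 (1.75, 6.20 and 1.31 RPM) and IgG 2, 0 and 6. Stat5b fell to 0.211 times its 13 h level (0.0959 to 0.417), a call lost with each start counted once (0.0965 to 0.601), whereas Stat5a was 0.582 times (0.324 to 1.01). Here too the intervals of the antibodies overlapped, and a difference between them was not tested. After 2 rounds Stat5a was 2.90 times IgG (1.12 to 8.83) and Stat5b 1.26 times (0.415 to 4.22).

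**Figure D5:**
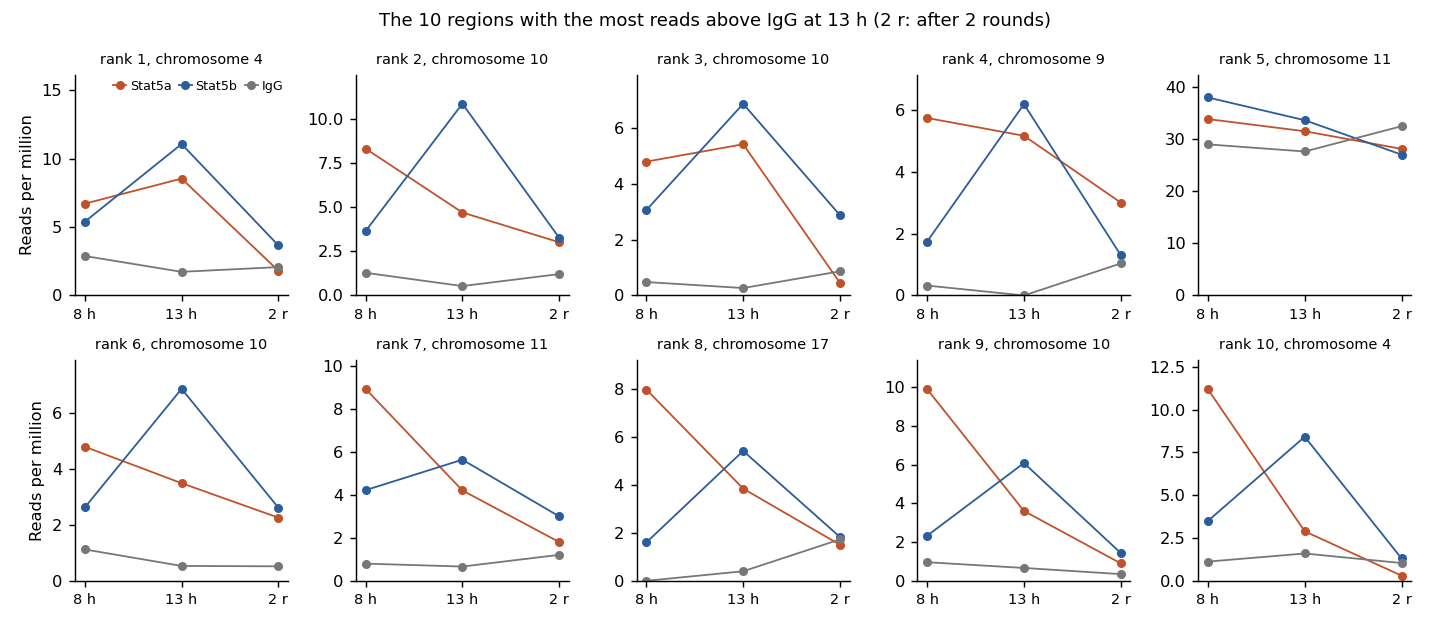
RPM at 8 h, 13 h and after 2 rounds (2 r) of Stat5a, Stat5b and IgG in the 10 regions with the most reads above IgG at 13 h, 1 panel each with its own scale from 0, and lines joining the stages. The Stat5b line peaks at 13 h in 9 panels, while in the panel of rank 5 all 3 lines, IgG included, lie between 27.0 and 38.0 RPM.

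Among called regions with at least 30 reads, the largest Stat5b fall after 13 h was on chromosome 4 from 142416312 to 142416736, in all 4 lists. Stat5b held 20, 35 and 0 reads there (2.91, 3.87 and 0 RPM), Stat5a 17, 18 and 5 (5.43, 2.17 and 0.752 RPM) and IgG 1, 1 and 0. Stat5b after 2 rounds was at most 0.101 times its 13 h level with the later library at the floor of 3 counts (interval of the ratio 0 to 0.131; each start once, 0 to 0.262). It is 1 of the 2 regions at which both antibodies fell from 8 h, Stat5a to 0.139 times (0.0400 to 0.391; each start once, 0.0324 to 0.791, not called). The other lay on chromosome 11 from 23719015 to 23719413, with 12, 9 and 2 Stat5a reads, 20, 23 and 2 Stat5b reads and 0, 2 and 0 IgG reads, and was named after its values were seen.

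Under the same limit of 30 reads, the largest Stat5a fall after 13 h was on chromosome 16 from 32049963 to 32050760. Stat5a held 17, 31 and 1 reads (5.43, 3.73 and 0.150 RPM), Stat5b 17, 24 and 8 (2.48, 2.66 and 1.04 RPM) and IgG 4, 4 and 2. Stat5a after 2 rounds was 0.0403 times its 13 h level (0.000990 to 0.242; each start once, 0.00163 to 0.427). On chromosome 2 from 135577323 to 135577970, Stat5b held 14, 43 and 3 reads (2.04, 4.76 and 0.392 RPM) and fell to 0.0823 times its 13 h level (0.0163 to 0.257; each start once, 0.0288 to 0.496). There Stat5a held 15, 15 and 2 reads and IgG 5, 4 and 3, so that after 2 rounds all 3 antibodies were within 1 read of each other.

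The largest Stat5b rise between 8 h and 13 h, again among called regions with at least 30 reads, did not reverse later. On chromosome 4 from 116680237 to 116680807, Stat5b held 2, 42 and 32 reads (0.291, 4.65 and 4.18 RPM), Stat5a 5, 17 and 12 (1.60, 2.05 and 1.81 RPM) and IgG 0, 1 and 5. Stat5b at 13 h was 16.0 times its level at 8 h (4.15 to 136; each start once, 10.8 with 2.67 to 94.0), and after 2 rounds 0.899 times its 13 h level (0.549 to 1.46). It was then 4.84 times IgG (1.87 to 15.9). This region met the rule although its Stat5b reads after 2 rounds exceeded the median of that library's peaks.

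On chromosome 17 from 33773009 to 33773468 the Stat5b rise did reverse. Stat5b held 3, 46 and 5 reads (0.437, 5.09 and 0.653 RPM), Stat5a 12, 27 and 13 (3.83, 3.25 and 1.96 RPM) and IgG 1, 5 and 2. Stat5b rose to 11.7 times its level at 8 h (3.75 to 58.6) and fell to 0.128 times its 13 h level (0.0398 to 0.322). With each start counted once the rise was still called (2.28 to 38.7) and the fall was not (0.0465 to 0.533).

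The 4 regions called higher for Stat5a at 13 h than at 8 h were unlike the rest. All 4 had entered through the Stat5b list alone at 8 h, 3 of them had 0 Stat5a reads at 8 h, and none of the calls was made with each start counted once. On chromosome 9 from 53469714 to 53469859, Stat5a held 0, 50 and 26 reads, Stat5b 18, 35 and 12 and IgG 15, 19 and 38. On chromosome 2 from 60906207 to 60906487, Stat5a held 0, 39 and 15 reads, Stat5b 33, 40 and 5 and IgG 8, 11 and 29. In both, IgG exceeded Stat5a after 2 rounds.

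The third, on chromosome 7 from 87713988 to 87714162, held 0, 43 and 23 Stat5a reads, 32, 39 and 2 Stat5b reads and 8, 9 and 16 IgG reads. The fourth was a heap on chromosome 4 from 142089736 to 142089896, and it was named because it was heaped. Its reads numbered 10, 2112 and 1602 for Stat5a, 80, 54 and 24 for Stat5b and 62, 1904 and 1233 for IgG. The high counts were those of the 4 libraries that hold 24 bp reads, 2 of them IgG.

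The 19 regions with 100 or more IgG reads over the 3 stages stood near or below the control. Their median width was 238 bp, and their median levels at 8 h, 13 h and 2 rounds were 10.2, 8.90 and 7.83 RPM for Stat5a, 7.14, 9.96 and 6.27 RPM for Stat5b and 10.1, 12.0 and 13.3 RPM for IgG. In 17 of them the interval lay below IgG in at least 1 of the 6 ChIP libraries. Over all 515 regions, 37 did so. In the order of the stages, Stat5a was below IgG in 8, 13 and 17 regions (background 0.395%, 1.01% and 0.891%), and Stat5b in 11, 7 and 16 (background 1.43%, 0.864% and 0.446%). One of the 19, on chromosome 11 from 53983376 to 53984197, stood between 27.0 and 38.0 RPM in all 9 libraries and ranked among the 10 highest above IgG at 8 h and at 13 h, where Stat5b was 1.31 times (1.08 to 1.59) and 1.22 times IgG (1.02 to 1.46).

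The last set of values concerns position. The distance from a member to the nearest later peak was 5538 bp at the median (quartiles 1494.5 and 19802 bp), and 322 of the 515 (62.5%) lay within 10 kb of one and 98 (19.0%) within 1 kb. Of all merged regions, 57.8% lay within 10 kb of another later peak and 21.5% within 1 kb, with a median of 6903 bp. For regions with peaks at 8 h alone the median was 11182 bp, and for those at 13 h alone 13676 bp. The nearest region with peaks at all 3 stages was 38229 bp away at the median, and 30.1% of the members lay within 10 kb of one, against 18.3% of the 8 h regions and 10.5% of the 13 h regions. Among the lasting regions themselves, 31.2% had another within 10 kb. Members are wider than regions of a single early stage, and no test of these differences was made.

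Regions were also called anew, in the same way for all 6 ChIP libraries, in windows of 200 bp from 2050801 distinct starts each, the number in Stat5a at 8 h. Of the 515 members, 167 (32.4%) held such a region at 8 h for either antibody, 79 (15.3%) at 13 h and 9 (1.75%) after 2 rounds, and 298 (57.9%) at no stage. The course over the stages matched 8 h and 13 h without 2 rounds in 34 members (6.60%). These counts for either antibody were not made for all merged regions, so nothing particular to the members is read from them. For Stat5a, 155, 19 and 2 members held a call at 8 h, 13 h and 2 rounds (30.1%, 3.69% and 0.388%), against 5.40%, 2.96% and 6.91% of all merged regions. For Stat5b, 22, 67 and 8 members did (4.27%, 13.0% and 1.55%), against 1.42%, 6.03% and 24.7% of all merged regions. This calling differs from the authors' lists in its method as well as in depth. Stat5a at 8 h, which was not thinned, had a deposited peak in 298 members alone and in 87 with Stat5b, and a call here in 155.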

How the data were processed

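The deposited data are, as their contents show, a list of read positions for every library (start, end and strand in bp of mm8, not normalized), and a list of the authors' peaks for every ChIP library (start and end, with no score). Which aligner and peak caller the authors ran, and whether the caller used IgG, is not given in the sources used here. The 24 bp starts were moved by 1 bp to match the 25 bp reads, an offset that is clear only in Stat5a at 13 h. Reads were counted at their 5′ end over all 43766 merged regions and divided by all mapped reads. Simulated counts with known changes were used to test how calls are made. Deposited positions were used in mm8 only. Gene names and DNA sequence at these positions were not analysed here, because the reference tables at hand are of GRCm38.p6.

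The members, lists and tests were chosen with earlier results of these data known. Regions named are the 10 highest above IgG (mean RPM of both antibodies) at 8 h and at 13 h, the 5 with the most reads in all 4 lists, up to 5 per antibody and direction with the largest called change and at least 30 reads, the 5 highest after 2 rounds, the 5 widest, the 3 nearest to and the 3 farthest from a later peak, and the heaps, of which the text gives examples. Alternatives were scaling by reads outside regions, each start and strand counted once, reads moved 75 bp downstream, 25 bp reads alone, pooled IgG, and other ways to join or call peaks. Regions without 100 IgG reads and median-ratio scaling were added after the data were seen. Computations used Python 3.11.15 with scipy 1.17.1, numpy 2.4.6 and pandas 2.3.3, and figures were drawn with matplotlib 3.10.9.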

Additional observations from a re-analysis of the deposited data

Results flagged for a closer look

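Between 8 h and 13 h the summed levels of the antibodies moved in opposite directions at the regions with peaks at 8 h and 13 h only. Over 494 regions Stat5a at 13 h was 0.486 times its level at 8 h (0.469 to 0.504), and Stat5b was 1.73 times (1.67 to 1.79). Each value compares 1 pair of libraries, so whether the antibodies differ was not tested, and the depth, repeat reads and read lengths of the libraries differ too. Over all merged regions the median ratios were 0.869 for Stat5a and 1.90 for Stat5b, and scaled to those medians the summed Stat5b ratio was 0.910 (0.880 to 0.942). In the 51 regions of the Stat5b list alone at both stages Stat5a was 0.777 times its level at 8 h (0.646 to 0.939), and in the 29 with Stat5b alone at 8 h and Stat5a alone at 13 h it was 2.54 times (1.99 to 3.28).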

How the results depend on the processing

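No paired analysis was possible because each antibody and stage has 1 library, so no replicate could be left out either. Of 223 values under alternatives, 182 kept their direction and side of the threshold or moved by less than the limits set. The number of regions was 515. It was 335 with the upper 50% of each list by reads and 219 with regions called anew from equally many distinct starts. It was 489 with gaps of up to 200 bp joined and 732 with 50% reciprocal overlap. These are not all the same regions. Of the 515, 341 overlapped a region of those 732. Called anew, 34 of the 515 matched 8 h and 13 h without 2 rounds.

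With each start and strand counted once, calls in the order higher and lower were 0 and 12 for Stat5a at 13 h over 8 h, 6 lower at 2 rounds over 13 h, and 0 and 58 at 2 rounds over 8 h. For Stat5b they were 5 higher at 13 h over 8 h, 12 lower at 2 rounds over 13 h, and 1 and 1 at 2 rounds over 8 h. Stage calls under the alternatives were made on the members alone. Regions above IgG were then 124 for Stat5b at 8 h, and 10 for Stat5a and 40 for Stat5b after 2 rounds. With 25 bp reads alone, Stat5a had 21 lower at 13 h over 8 h and 0 higher at 2 rounds over 8 h, 16 and 9 regions were above IgG after 2 rounds for Stat5a and Stat5b, and the median IgG level after 2 rounds was 0 RPM. With pooled IgG, 151 and 286 were above it.

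With 50% reciprocal overlap, which admits regions beside later peaks, the counts are out of 732 regions. Stat5a had 1 higher at 13 h over 8 h, 24 at 2 rounds over 13 h and 10 at 2 rounds over 8 h. Stat5b had 67, 62 and 195 higher, with 2 lower at 2 rounds over 8 h. With reads moved 75 bp, 1 region was higher for Stat5a at 2 rounds over 13 h, and the summed Stat5b ratio of 2 rounds over 8 h was 0.967, its interval reaching 1.01. Scaling by reads outside regions moved Stat5b by 0.19 (log2) at 2 rounds over 13 h and by 0.22 over 8 h. It gave 20 lower at 2 rounds over 13 h, 8 higher and 4 lower at 2 rounds over 8 h, and a summed Stat5b ratio of 1.12 there, a reversal.

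Scaling by the median ratio, chosen after seeing the data, sets that median (log2 -0.20, 0.32 and 0.14 for Stat5a, 0.93, 1.37 and 2.27 for Stat5b, at 13 h over 8 h, 2 rounds over 13 h and 2 rounds over 8 h) to 0. It gave 56 lower for Stat5a at 2 rounds over 13 h. For Stat5b it gave 1 higher and 4 lower at 13 h over 8 h with a summed ratio of 0.910, a reversal, then 276 lower at 2 rounds over 13 h, and 0 higher and 230 lower at 2 rounds over 8 h. The causes of these differences were not tested.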

Other observations

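Members lay unevenly along the genome. Chromosome 1 held 59 of the 515 regions (11.5%) and 6.79% of all merged regions, and chromosome 16 held 32 (6.21% against 4.01%). Chromosome 8 held 10 (1.94% against 4.55%). On chromosome 1, 35 of the 59 lay between 50 and 70 Mb or between 150 and 170 Mb, where they made up 4.23% of 827 merged regions, against 1.18% genome-wide. These stretches were chosen after the counts were seen, and no test was made.

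Some members stood in groups. Within gaps of 10 kb, 44 members formed 21 groups and 471 stood alone. Within gaps of 100 kb, the largest group held 5 members on chromosome 6 from 99222478 to 99397748, among 29 other merged regions of which 21 had a later peak. Its members summed to 21.4, 9.02 and 3.76 RPM for Stat5a at 8 h, 13 h and 2 rounds, 6.99, 11.4 and 7.05 RPM for Stat5b and 1.12, 1.73 and 3.28 RPM for IgG. A group of 4 on chromosome 11 from 23719015 to 23792624 had no later peak inside, and summed to 16.9, 8.66 and 3.01 RPM for Stat5a, 8.45, 12.2 and 2.87 RPM for Stat5b and 0.481, 1.73 and 0.691 RPM for IgG. So members occurred both among lasting regions and in a stretch of 73.61 kb with none.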
